A study of Mus musculus with 48 samples.

Results

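Dbp, Tef and Hlf, which encode the PAR bZIP transcription factors, and Nfil3, which encodes their competitor, were followed in liver and gut of mice that had received a faecal transplant. These 4 genes of the 20702 named genes measured were found by their symbols in the authors' tables, and each was represented by 1 of the 35556 transcript clusters of the array in both tissues. All recipients were age-matched male C57BL/6J mice on a normal diet and a light and dark cycle of 12 hours each. Donor mice were fed Normal Chow (NC), High Fat (HF) or Ketogenic (KD) food, and recipient tissue was taken at zeitgeber time ZT0, when lights come on, or at ZT12, when they go off. The 48 arrays fell into 12 groups of 4, 1 for every combination of tissue, donor food and time. The labels also speak of germ-free mice and of a chow for an antibiotic experiment, but tie neither to a sample, so the gut flora the recipients had before the transplant is not known here. The gut samples carry the label "Gut (DI)". No untransplanted mice were analysed here, so every group, the NC controls included, had received a transplant.

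PAR bZIP factors are basic leucine zipper proteins with a region rich in proline and acidic amino acids. They bind D-box elements as dimers and activate transcription, while NFIL3, also called E4BP4, binds the same elements and represses. In the mammalian clock, CLOCK and BMAL1 drive Dbp through E-boxes and are in turn held back by PER and CRY proteins. Nfil3 is repressed by the REV-ERB receptors through ROR elements, so that activators and repressor of the D-box are abundant at opposite times of day. In mouse liver the PAR bZIP factors act on genes of drug and haem metabolism, and in lymphoid cells NFIL3 is required for natural killer and innate lymphoid cells.

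The members and several clock genes differed between ZT0 and ZT12. The 250 bases before each RefSeq start (GRCm38.p6) were therefore searched on both strands. The letters sought were the E-box CACGTG, the D-box letters TTATGTAA or TTACGTAA, and the core of a ROR element, TAGGTCA or TGGGTCA. The letters were chosen with these sequences already seen. The table held 5 windows for the 4 genes, 2 of them for Tef. The 3 windows with a match are shown 5′ to 3′ on the gene's strand, with the matched letters in capitals: both Tef windows on the + strand, chr15:81802423-81802672 and chr15:81811164-81811413, and the Nfil3 window on the − strand, chr13:52981040-52981289.
Tef, first start: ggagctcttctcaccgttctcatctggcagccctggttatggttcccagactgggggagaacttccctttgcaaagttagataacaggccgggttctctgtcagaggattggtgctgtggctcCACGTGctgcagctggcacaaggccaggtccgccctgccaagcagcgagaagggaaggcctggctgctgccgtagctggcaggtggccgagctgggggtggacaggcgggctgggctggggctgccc
Tef, second start: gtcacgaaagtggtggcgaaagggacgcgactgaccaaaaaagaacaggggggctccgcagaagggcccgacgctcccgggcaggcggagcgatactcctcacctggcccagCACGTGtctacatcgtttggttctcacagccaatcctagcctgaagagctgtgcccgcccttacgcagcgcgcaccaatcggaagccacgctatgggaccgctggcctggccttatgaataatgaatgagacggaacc
Nfil3: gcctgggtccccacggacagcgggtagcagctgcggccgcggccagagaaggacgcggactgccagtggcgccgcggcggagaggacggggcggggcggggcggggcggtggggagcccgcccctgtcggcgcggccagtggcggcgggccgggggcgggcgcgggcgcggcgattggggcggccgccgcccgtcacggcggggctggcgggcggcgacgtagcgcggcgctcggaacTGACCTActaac

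Each Tef window held 1 E-box, at 127 to 122 bases before the first start and at 138 to 133 bases before the second. An E-box was present in 6.02% of the 32851 windows of this length. The Nfil3 window held the ROR core on the opposite strand, 12 to 6 bases before the start, letters found in 5.38% of windows. The D-box letters, present in 0.931% of windows, were in none of the 5 windows, and no searched letters were in the windows of Dbp (chr7:45704997-45705246, + strand) or Hlf (chr11:90390918-90391167, − strand). No matches overlapped. A match describes these letters only. The single Tef cluster of the array cannot tell its starts apart.

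In both tissues and with every donor diet, Dbp, Tef and Hlf were higher at ZT12 and Nfil3 was lower. In liver, averaged over the 3 donor diets, Dbp rose by 4.30 ± 0.08 (SE) on the log2 scale, Tef by 2.19 ± 0.07 and Hlf by 0.95 ± 0.06, while Nfil3 fell by 1.92 ± 0.09. In gut, Dbp rose by 3.44 ± 0.11, Tef by 2.12 ± 0.07 and Hlf by 0.86 ± 0.08, while Nfil3 fell by 2.22 ± 0.08. No donor diet moved any member past the threshold at either time.

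**Figure D1:**
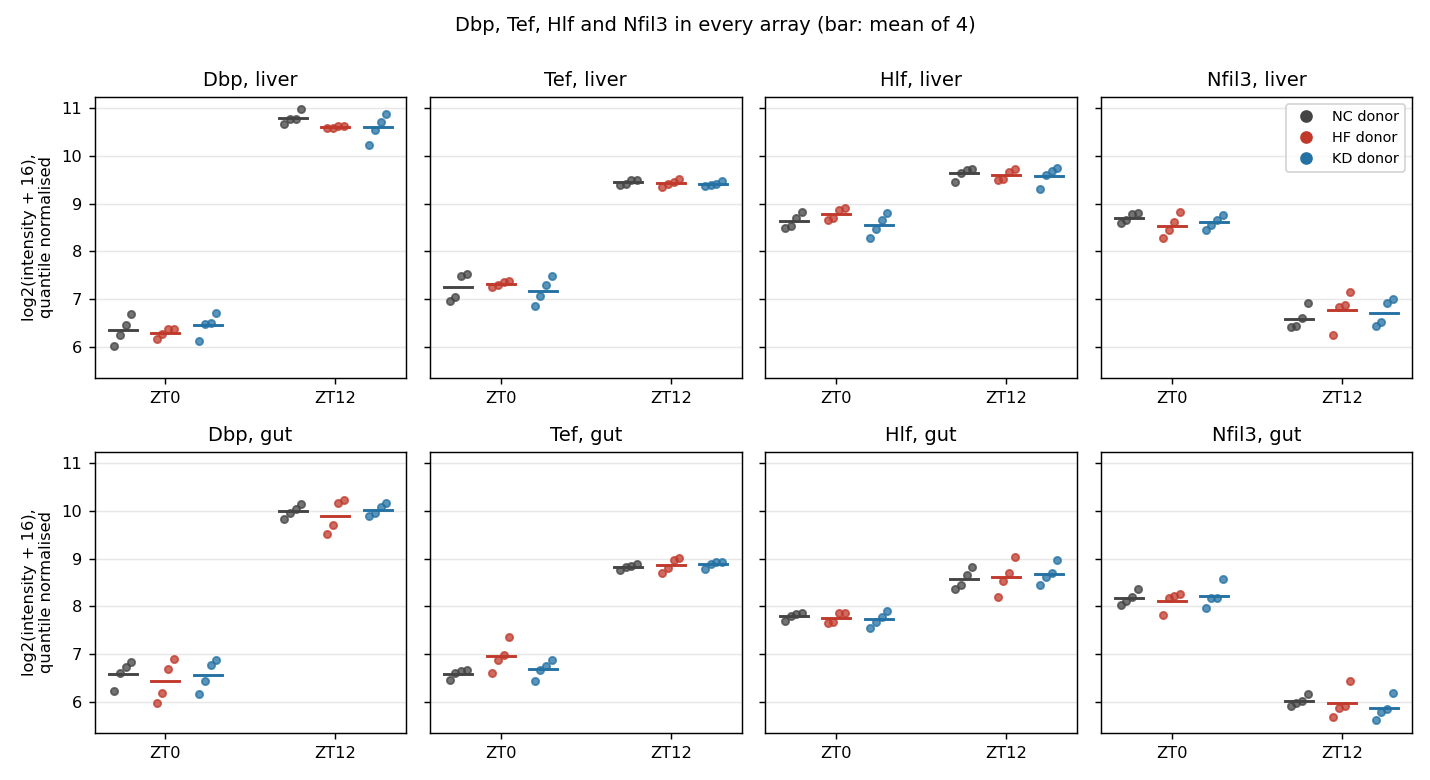
Quantile normalised log2(intensity + 16) of each gene on every array, by tissue, time and donor diet, with a bar at the mean of 4 arrays. All 12 ZT12 arrays lie above all 12 ZT0 arrays for Dbp, Tef and Hlf, and below them for Nfil3, in both tissues. Levels of different genes come from different probes and are not to be set against each other.

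Dbp encodes D-site albumin promoter binding protein. In liver at ZT0 its deposited intensity was 61.1, 83.6, 44.8 and 64.9 units after NC transplants, 64.3, 57.8, 57.7 and 68.3 after HF transplants and 68.7, 67.7, 51.5 and 93.1 after KD transplants. At ZT12 it was at 2076.0, 1752.3, 1726.1 and 1600.8 units after NC transplants, 1493.7, 1603.4, 1566.9 and 1501.8 after HF transplants and 1836.4, 1712.7, 1469.8 and 1187.6 after KD transplants. The times did not come near each other, and the mean of the 12 ZT12 arrays was 24.92 times that of the 12 ZT0 arrays. In the fit across all genes the change was 4.45 ± 0.13 (SE, limma) in NC recipients, 4.31 in HF recipients and 4.15 in KD recipients, with adjusted p-values of 4.95e-17, 1.03e-16 and 2.41e-16. Dbp had the smallest p-value of all genes in liver with each donor diet.

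In gut at ZT0 Dbp was at 79.7, 96.6, 88.3 and 56.4 units after NC transplants, 88.6, 99.0, 45.6 and 54.6 after HF transplants and 97.0, 91.3, 56.3 and 71.3 after KD transplants. By ZT12 the values were 906.2, 1124.6, 1013.0 and 970.3 units after NC transplants, 1104.9, 803.5, 709.7 and 1166.5 after HF transplants and 946.1, 1038.6, 1136.8 and 975.1 after KD transplants. Again no array of one time reached the range of the other, and the ratio of the means was 12.86. The log2 change was 3.40 ± 0.19 (SE) in NC recipients, 3.47 in HF recipients and 3.46 in KD recipients. Dbp lay below the median of its array on 12 of 12 ZT0 arrays in both tissues, where offset and background compress differences, and at or above the 87.4 percentile at ZT12.

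Tef encodes thyrotroph embryonic factor. In liver at ZT0 it was at 165.3, 105.0, 111.2 and 165.0 units after NC transplants, 147.2, 148.1, 140.8 and 142.3 after HF transplants and 136.6, 155.9, 113.2 and 104.6 after KD transplants. The ZT12 arrays gave 690.5, 663.6, 694.0 and 698.1 units after NC transplants, 623.9, 662.7, 698.9 and 686.8 after HF transplants and 645.3, 706.6, 652.8 and 647.4 after KD transplants. The ZT12 arrays were tightly grouped, with a pooled SD within groups of 0.06 on the log2 scale against 0.23 at ZT0. The ratio of the means was 4.93, and the log2 change was 2.20 ± 0.11 (SE) in NC recipients, 2.11 in HF recipients and 2.25 in KD recipients.

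In gut at ZT0 Tef was at 84.7, 71.3, 81.9 and 78.1 units after NC transplants, 113.1, 144.5, 78.8 and 98.2 after HF transplants and 88.1, 99.7, 71.2 and 86.6 after KD transplants. At lights off it stood at 422.5, 443.6, 450.9 and 447.6 units after NC transplants, 482.4, 424.6, 396.9 and 475.6 after HF transplants and 426.3, 453.5, 473.9 and 452.8 after KD transplants. The spread was again lower at ZT12, with a pooled SD of 0.10 against 0.22. At ZT0, 3 of the 4 HF arrays lay above all 4 NC arrays. The share of all genes that separate in this way is not given here, and limma did not call the difference (adjusted p = 0.999). The ratio of the means was 4.88, and the log2 change was 2.24 ± 0.11 (SE) in NC recipients, 1.92 in HF recipients and 2.20 in KD recipients. Averaged over donor diets, Tef had the smallest p-value of all genes in gut.

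Hlf, hepatic leukemia factor, lay above the array median on every array. In liver at ZT0 it was at 434.7, 350.1, 352.3 and 420.0 units after NC transplants, 474.0, 460.0, 401.3 and 385.9 after HF transplants and 449.8, 336.0, 389.7 and 286.2 after KD transplants. The values at ZT12 were 819.7, 819.0, 814.7 and 683.2 units after NC transplants, 700.4, 702.2, 849.4 and 762.6 after HF transplants and 786.0, 621.5, 735.6 and 841.5 after KD transplants. The ratio of the means was 1.93, the smallest of the 4 genes, yet the times did not overlap. The log2 change was 1.0 ± 0.11 (SE) in NC recipients, 0.82 in HF recipients and 1.03 in KD recipients, with adjusted p-values of 8.74e-07, 1.55e-05 and 6.34e-07.

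In gut at ZT0 Hlf was at 209.8, 221.2, 190.5 and 206.1 units after NC transplants, 218.7, 215.1, 183.3 and 181.9 after HF transplants and 169.9, 229.2, 203.6 and 190.2 after KD transplants. ZT12 intensity was 438.6, 338.5, 314.2 and 388.7 units after NC transplants, 388.3, 348.3, 274.0 and 500.6 after HF transplants and 332.7, 387.7, 377.0 and 483.8 after KD transplants. The ratio was 1.89, and here the ZT12 arrays were the more scattered, with a pooled SD of 0.27 on the log2 scale against 0.12. The log2 change was 0.78 ± 0.14 (SE) in NC recipients, 0.86 in HF recipients and 0.96 in KD recipients, with adjusted p-values of 0.00173, 0.000647 and 0.000163.

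Nfil3, the repressor of the same sites, ran opposite. In liver at ZT0 it was at 386.2, 438.8, 430.1 and 384.3 units after NC transplants, 300.2, 446.1, 332.9 and 374.2 after HF transplants and 374.2, 389.1, 337.1 and 395.4 after KD transplants. Arrays of ZT12 read 78.3, 69.4, 69.9 and 105.3 units after NC transplants, 106.1, 104.7, 129.7 and 66.5 after HF transplants and 75.9, 114.6, 78.9 and 107.7 after KD transplants. The mean at ZT0 was 4.15 times that at ZT12, and 6 of 12 ZT12 arrays lay below the array median. The log2 change was -2.12 ± 0.16 (SE) in NC recipients, -1.75 in HF recipients and -1.89 in KD recipients, with adjusted p-values of 1.74e-09, 5.43e-08 and 1.74e-08.

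In gut at ZT0 Nfil3 was at 274.2, 248.9, 319.8 and 267.4 units after NC transplants, 214.1, 269.8, 286.3 and 277.4 after HF transplants and 281.7, 373.9, 274.1 and 234.9 after KD transplants. At ZT12 the gene was at 50, 44.7, 46.1 and 52.5 units after NC transplants, 43.2, 74.0, 45.7 and 38.3 after HF transplants and 42.2, 32.4, 44.7 and 58.2 after KD transplants. All 12 ZT12 arrays were below the array median, between the 13 and the 31.0 percentile. The mean at ZT0 was 5.81 times that at ZT12, and the log2 change was -2.16 ± 0.15 (SE) in NC recipients, -2.14 in HF recipients and -2.36 in KD recipients.

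**Figure D2:**
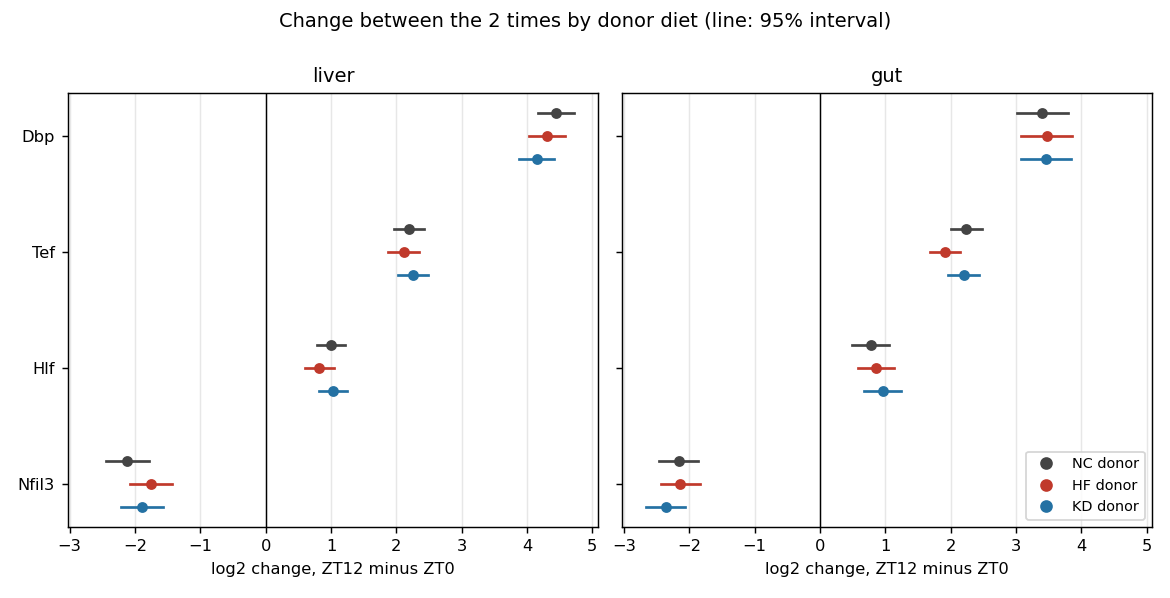
Log2 change from ZT0 to ZT12 of each gene by donor diet, with its 95% interval, in liver and in gut. Dbp, Tef and Hlf lie right of 0 and Nfil3 left of 0 in all 6 combinations of tissue and donor diet, and the intervals of the 3 donor diets overlap for each gene.

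These changes are read against the background of all genes. In liver, 4.23% of genes were called higher and 4.85% lower at ZT12 in NC recipients, 3.16% and 4.69% in HF recipients, and 3.33% and 5.32% in KD recipients. In gut the shares were 1.22% higher and 1.17% lower in NC recipients, 1.49% and 1.83% in HF recipients, and 2.12% and 1.88% in KD recipients. Calls in the same direction with all 3 donor diets, which the 4 members made in both tissues, were made by 1.63% of genes higher and 2.43% lower in liver, and by 0.613% and 0.493% in gut. Complete separation of the 12 arrays of each time, also seen for all 4 members, was shared by 1.23% of genes with ZT12 above and 1.63% with ZT12 below in liver, and by 0.618% and 0.464% in gut. With only 2 times, no phase or peak can be given: a lower value at ZT0 says nothing of when between the samples the peak fell. In bulk tissue, fewer cells of a type and less RNA per cell cannot be told apart.

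Donor diet was compared at each time, which addresses whether a transplant from a differently fed donor altered these genes. Over 96 tests of the members, 48 per tissue and covering donor differences at each time, over both times and their change with time, limma called 0, and 4 had an unadjusted p under 0.05, 3 in gut and 1 in liver. Over all genes 6.09% of the same tests in gut and 4.01% in liver had one, so the members' count is near the background. All 3 in gut were tests of Tef that used the HF arrays of ZT0, so they are not independent of each other. Few other genes passed in limma. The 9 donor comparisons of a tissue together called 0.000537% of tests in liver and 0.00107% in gut. The changes of a donor difference with time called 0.000805% over both tissues. The authors' p-values, adjusted again over each table, gave more in gut at ZT12. There 210 of 23811 clusters were below 0.05 with HF against NC donors and 662 with KD against NC donors, no member among them. In both gut tables of ZT0 the count was 0, and in the liver tables it was 0 at ZT0 and 2 at ZT12. The intervals bound what could have been missed. At either time the 95% intervals of the donor differences lay between -0.47 and 0.37 on the log2 scale for Dbp, -0.32 and 0.39 for Tef, -0.31 and 0.45 for Hlf and -0.50 and 0.52 for Nfil3 in liver. In gut they lay between -0.55 and 0.42 for Dbp, -0.24 and 0.60 for Tef, -0.35 and 0.39 for Hlf and -0.46 and 0.41 for Nfil3.

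Tef in gut at ZT0 gave the largest donor difference at 1 time. It was higher with HF than with NC donors by 0.37 ± 0.11 (SE) on the log2 scale, with an unadjusted p of 0.0038 and an adjusted p of 0.999 in limma, and higher than with KD donors by 0.27, unadjusted p 0.0252 and adjusted p 0.939. At ZT12 the difference between HF and NC donors was 0.04 and its change with time was -0.33 ± 0.16 (adjusted p = 0.999). Without gut HF ZT0 replicate 2 these values were 0.23 against NC donors, 0.14 against KD donors and -0.19 for the change with time, and with the replicate block 0.21, 0.13 and -0.17. The authors' deposited table gives a ratio of 1.38 and a p-value of 0.00941 for Tef in gut with HF over NC donors at ZT0, which is 1.0 after adjustment over the table. The 12 B cell and T cell markers, whose mean log2 level ranged from 6.94 to 8.45 with HF donors and from 6.81 to 8.42 with NC donors at ZT0, overlapped between these groups.

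In liver at ZT12, Dbp differed from the NC group by -0.19 ± 0.13 on the log2 scale in HF recipients and by -0.20 ± 0.13 in KD recipients (limma), with adjusted p-values of 0.967 and 1. Of the 4 HF arrays, 3 lay below all 4 NC arrays in deposited intensity and 1, at 1603.4, lay above the lowest NC array. On the quantile normalised log2 scale that was tested, all 4 HF arrays (10.58 to 10.64) lay below all 4 NC arrays (10.67 to 10.98). The share of all genes that separate the HF and NC groups in this way is not given here, so the separation alone shows no donor effect. In limma this comparison called 0 genes, and Dbp ranked 3282 by p-value (unadjusted p 0.159). The KD arrays overlapped the NC arrays on both scales, and without liver KD ZT12 replicate 13 their difference was -0.08. The authors' deposited table gives ratios of 0.862 and 0.867 for Dbp in liver at ZT12, with p-values of 0.00809 and 0.0555, which are 0.378 and 0.537 after adjustment over each table. For Nfil3 in liver at ZT12 with HF over NC donors, the authors' deposited table gives a ratio of 1.26 and a p-value of 0.0408, which is 0.442 after adjustment. Hlf in liver at ZT0 was higher with HF than with KD donors by 0.23 ± 0.11, unadjusted p 0.0477 and adjusted p 1, a difference of 0.14 without liver KD ZT0 replicate 7 and 0.12 with array weights. The time change with HF minus that with NC donors was 0.37 ± 0.22 for Nfil3 in liver (adjusted p = 1), and with KD minus NC donors it was -0.30 ± 0.19 for Dbp in liver (adjusted p = 0.999). The former was 0.07 with the replicate block and 0.24 without liver HF ZT12 replicate 10, and the latter -0.18 without liver NC ZT0 replicate 5 and -0.17 without liver KD ZT12 replicate 13.

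**Figure D3:**
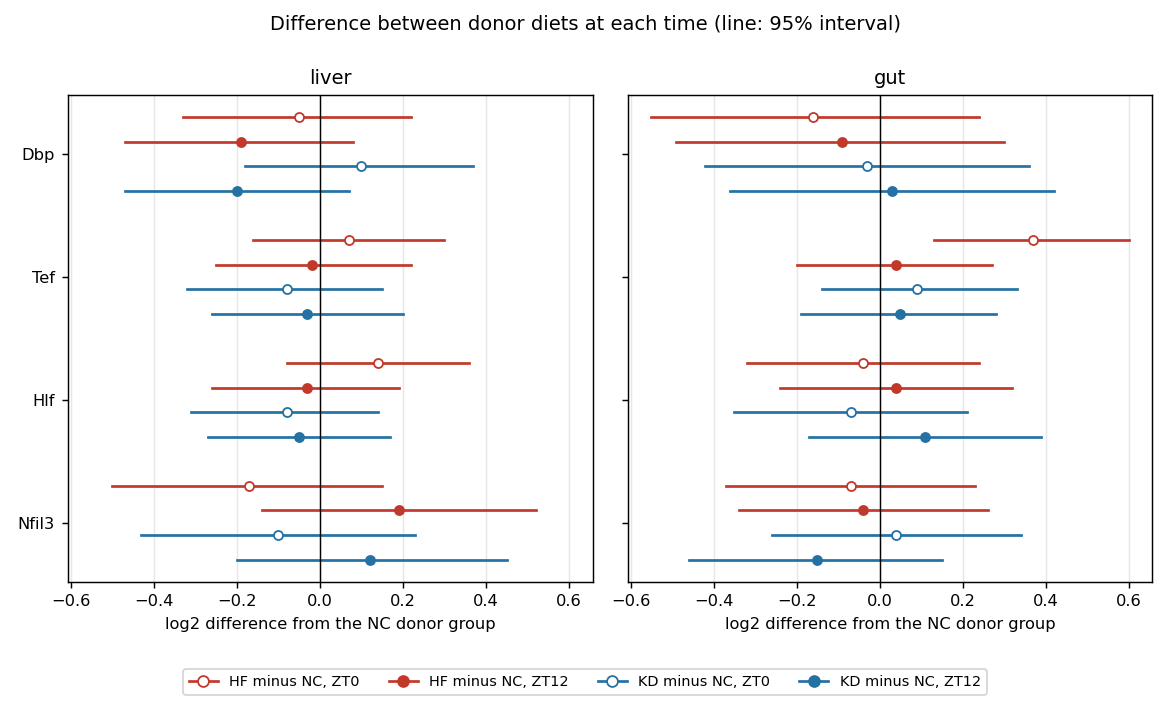
Log2 difference of the HF and KD donor groups from the NC donor group at ZT0 (open) and ZT12 (filled), with 95% intervals, in liver and in gut. Of the 32 intervals, the one for Tef in gut with HF donors at ZT0 leaves out 0, and none passed adjustment over all genes.

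Liver and gut were compared in a fit over all 48 arrays with the mouse code as a block, since 15 of the 33 mouse codes gave both tissues. The rise of Dbp was larger in liver than in gut by 0.86 ± 0.14 on the log2 scale (limma, adjusted p = 7.41e-06), in a comparison that called 18.1% of 20468 genes. By donor diet this difference was 1.04 in NC recipients (adjusted p = 0.00481), 0.84 in HF recipients (adjusted p = 0.0322) and 0.69 in KD recipients (adjusted p = 0.092), where 5.19%, 3.58% and 3.94% of genes were called. The change of Tef differed by 0.07 ± 0.09, with a 95% interval from -0.12 to 0.26, and that of Hlf by 0.09 ± 0.10, from -0.12 to 0.29. For Nfil3 the fall was smaller in liver by 0.30 ± 0.13 (limma, interval 0.04 to 0.56, adjusted p = 0.0986). That difference of Nfil3 passed at 0.36 (adjusted p = 0.0292) without liver HF ZT12 replicate 13, at 0.35 (0.0373) without gut HF ZT12 replicate 9, and at 0.46 (0.0289) with an offset of 1.

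After joint normalisation, Tef, Hlf and Nfil3 were higher in liver than in gut at both times. The differences at ZT0 were 0.88 for Tef, 1.31 for Hlf and 0.86 for Nfil3, and at ZT12 0.99, 1.39 and 1.10, each with an SE of 0.07 to 0.09. Dbp differed at ZT12 by 1.06 ± 0.10 and at ZT0 by 0.19 ± 0.10 (adjusted p = 0.064), and the latter turned to -0.18 without normalisation between arrays. That level difference of Dbp at ZT0 was 0.22 to 0.24 and passed without any 1 of 7 arrays: liver NC ZT0 replicate 5, liver KD ZT0 replicate 5, gut NC ZT0 replicate 3, gut HF ZT0 replicates 1 and 2, and gut KD ZT0 replicates 1 and 4. Such differences were common, with 81.1% of genes called at ZT0 and 81.3% at ZT12. The median gene lay 0.10 higher in liver after joint normalisation and 0.27 lower at ZT0 without it, so the tissue levels depend on the scaling.

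The list of clock regulators held 16 measured genes, of which 7 rose and 4 fell in liver with all 3 donor diets, and 7 rose and 3 fell in gut. Their median change was 0.65 in liver and 0.41 in gut on the log2 scale, beside 0.01 in liver and 0 in gut for all genes. Among all genes, 1.63% rose and 2.43% fell with all 3 donor diets in liver, and 0.613% and 0.493% in gut. Per3, Ciart and Per1, which encode repressors of CLOCK and BMAL1 or proteins associated with them, rose in liver by 3.09 ± 0.06, 2.35 ± 0.10 and 2.20 ± 0.23 (SE). Nr1d2, which encodes REV-ERB beta, rose by 1.61 and Per2 by 1.29. The CLOCK relative gene Npas2 fell by 5.07 ± 0.15 and Arntl, which encodes BMAL1, fell by 3.22 ± 0.11. Clock fell by 1.09 and Cry1, which encodes a repressor, fell by 0.57.

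In gut, Nr1d2 rose by 2.51 ± 0.11, Nr1d1, which encodes REV-ERB alpha, by 2.45 ± 0.25, Per3 by 2.29 ± 0.08, Ciart by 2.12, Per1 by 1.05 and Per2 by 1.01. Arntl fell by 2.31 ± 0.08, Npas2 fell by 1.42 and Cry1 fell by 0.71. The REV-ERB genes, whose products repress Nfil3, differed between the tissues: the rise in liver minus that in gut was -1.98 ± 0.31 for Nr1d1 (limma, adjusted p = 4.53e-06) and -0.90 ± 0.17 for Nr1d2 (adjusted p = 7.01e-05). In liver Nr1d1 changed by 0.35, 0.48 and 0.62 with NC, HF and KD donors and passed with none of them singly, while the mean over the donor diets, 0.48 ± 0.16, passed (limma, adjusted p = 0.023). Per3 rose more in liver than in gut by 0.80 ± 0.10 (adjusted p = 7.62e-08).

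Of 19 genes reported as targets of PAR bZIP factors or NFIL3, 8 rose and 0 fell in liver with all 3 donor diets, with a median change of 0.55. Among all genes, 1.63% rose and 2.43% fell in this way, with a median change of 0.01. Por, cytochrome P450 oxidoreductase, rose by 2.11 ± 0.09 (SE), and Alas1, which makes the first step of haem synthesis, by 2.07 ± 0.16. Cyp2a4 and Cyp2a5, near-identical steroid and coumarin hydroxylases whose probes may cross-hybridise, rose by 1.95 and 1.74. Cyp7a1, which catalyses the limiting step from cholesterol to bile acids, rose by 1.62 ± 0.22 and Nr1i3, the nuclear receptor CAR, by 0.91 ± 0.11. Lpl, lipoprotein lipase, changed by -0.87 in NC recipients and -0.93 in KD recipients, which passed, and by -0.53 in HF recipients (limma, adjusted p = 0.055). Counted per donor diet, 10 rose and 1 fell in NC recipients, 12 rose and 0 fell in HF recipients, and 8 rose and 1 fell in KD recipients. The shares of all genes that rose and fell were 4.23% and 4.85%, 3.16% and 4.69%, and 3.33% and 5.32%. With the unadjusted p under 0.05 in place of the adjusted one, over the mean of the donor diets, 15 of the 19 had one, against 38.7% of all genes in liver. These were not all rises: Lpl (-0.78), Fgf21 (-0.79) and Cd36 (-0.36) were lower at ZT12, and the rest were higher.

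In gut 2 of the 19 rose with all 3 donor diets and 0 fell, with a median change of 0.03. Among all genes, 0.613% rose and 0.493% fell in this way. The 2 were Abcb1a, which encodes a drug efflux pump, by 1.47 ± 0.08 and Abcc2, which encodes an export pump for conjugated compounds, by 1.28 ± 0.16. The unadjusted p of the mean change over the donor diets, in either direction, was under 0.05 for 7 of the 19, a share near the 34.6% of all genes in gut. Abcc2 also rose in liver with all 3 donor diets (mean 0.34 ± 0.04). For Abcb1a in liver the mean over the donor diets, 0.46 ± 0.08, passed (limma, adjusted p = 0.00011). Singly it passed with HF donors (adjusted p = 0.0039) but not with NC donors (adjusted p = 0.21). Both pumps rose more in gut than in liver. The rise in liver minus that in gut was -1.01 ± 0.12 for Abcb1a (adjusted p = 2.23e-08) and -0.95 ± 0.17 for Abcc2 (adjusted p = 4.25e-05). Of the targets that rose in liver with all 3 donor diets, all but Abcc2 differed the other way, each past the threshold. The differences were 2.06 ± 0.17 for Alas1, 1.59 ± 0.13 for Por and 1.63 ± 0.24 for Cyp7a1. They were 1.84 ± 0.16 for Cyp2a4, 1.71 ± 0.13 for Cyp2a5, 0.69 ± 0.23 for Nr1i3 and 0.56 ± 0.10 for Pdxk. These differences were chosen for report after their values were seen. Of the 5 C/EBP genes, bZIP relatives that bind related sites, 0 passed in limma with all 3 donor diets in either tissue, and with 1 donor diet only Cebpa in gut of NC recipients passed, at -0.33 (adjusted p = 0.033). An unadjusted p under 0.05 for the mean of the donor diets was found for 5 in liver and 3 in gut, against 38.7% and 34.6% of all genes, with median changes of 0.27 and -0.16. The same genes passed for this mean after adjustment (limma, adjusted p 0.0015 to 0.013 in liver and 0.0029 to 0.045 in gut). Over all genes, 5864 of 20702 passed for it in liver and 4442 in gut.

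**Figure D4:**
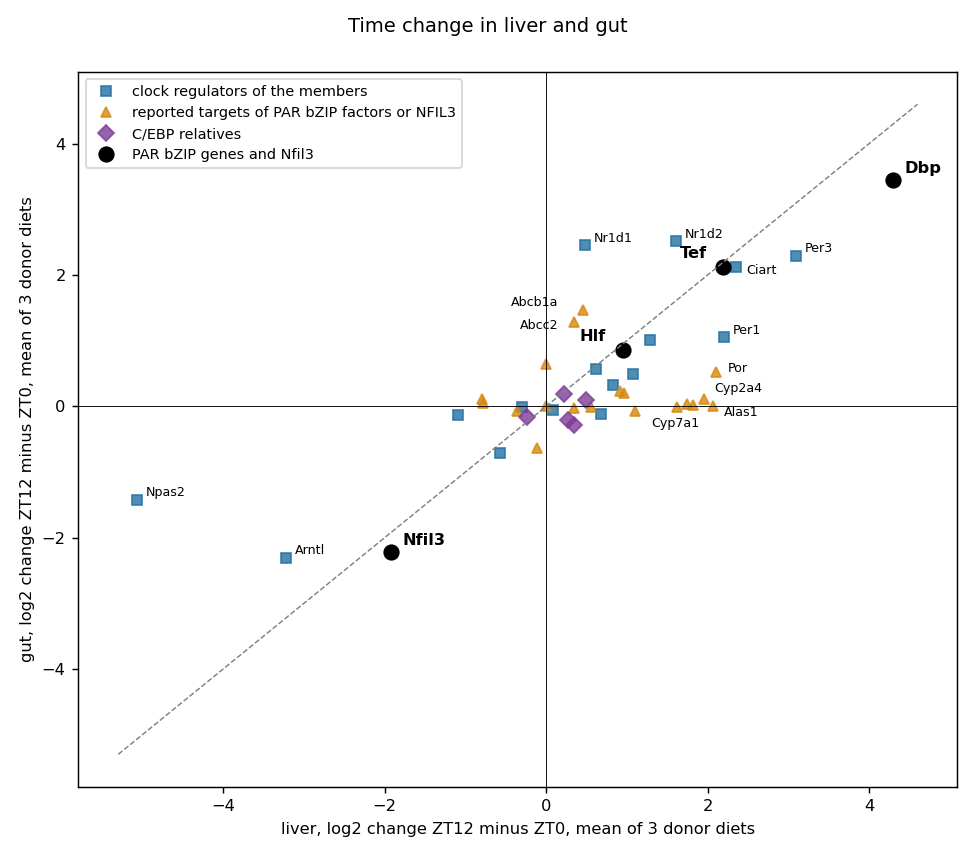
Log2 change from ZT0 to ZT12, mean of the 3 donor diets, in liver (x) and in gut (y) for the 4 genes, the clock regulators, the reported targets and the C/EBP relatives, with equal change on the dashed line. Tef and Hlf lie close to the line, Dbp below it, and Por, Alas1, Cyp2a4 and Cyp7a1 to the right with smaller changes in gut.

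The genes whose profile over the 24 arrays of a tissue was most like that of a member were ranked by the root mean square difference after each gene was centred on its own mean, a description with no test. In liver, Dbp at a root mean square of 2.16 about its mean was nearest to Usp2 (0.45), Per3 (0.65), Upp2 (0.97) and Ciart (1.03), and with the sign turned to Npas2 (0.54) and Arntl (0.60). Tef was nearest to Wee1 (0.29), Por (0.30), Ciart (0.31) and Cyp2a4 (0.33), and turned to Dhrs9 (0.21) and Tubb2b (0.22). Hlf was nearest to Marveld1 (0.15), Gys2 (0.15), Ngef (0.18) and Rhbdd2 (0.19), and turned to Pter (0.13) and Pnp2 (0.15). Nfil3 was nearest to Clpx (0.18), Insig2 (0.21), Avpr1a (0.25) and Dhrs9 (0.27), and, turned, to Tef (0.28) and Cyp2a5 (0.30). Usp2 encodes a deubiquitinase, Wee1 a kinase that restrains mitosis and Gys2 the liver glycogen synthase.

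In gut, Dbp was nearest to Nr1d2 (0.55), Per3 (0.60), Tef (0.70) and Nr1d1 (0.74), and turned to Arntl (0.64) and Nfil3 (0.68). Tef was nearest to Per3 (0.19), Tns4 (0.29), Ciart (0.30) and Nr1d2 (0.31), and turned to Arntl (0.24) and Nfil3 (0.26). Hlf was nearest to Epha1 (0.17), Plekhh1 (0.19) and Rev1 (0.21), and turned to Ppp1r14d (0.18) and Pnp2 (0.22). Nfil3 was nearest to Arntl (0.25), Ypel2 (0.45), Tmem252 (0.46) and Dab1 (0.48), and turned to Per3 (0.23) and Tef (0.26). Since the measure weighs size, a gene with a change of similar size is favoured, and all arrays of a time share that time.

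Whether the members varied together among animals of the same group was tested on the deviations of the 24 arrays of a tissue from their group means, over 12 relations. Dbp and Tef in gut were related, with Pearson r = 0.78 (permutation p = 0.0012, adjusted 0.015) and Spearman rho = 0.78 (permutation p = 0.0024, adjusted 0.029). Without the 2 arrays farthest from the median of Dbp, r was 0.70, and within the 12 arrays of ZT0 and of ZT12 it was 0.76 and 0.93. With the level of the 12 lymphoid markers taken out r was 0.82, with the 5 enterocyte markers 0.68 and with the 5 smooth muscle markers 0.79. Both genes were most spread after HF transplants, so those arrays weigh most in r. Their SD at ZT0 and ZT12 was 0.43 and 0.35 for Dbp and 0.32 and 0.15 for Tef. In gut of NC recipients at ZT0, the array with the highest Dbp, 6.826, had the lowest Tef, 6.461. The relation was not tested by donor diet. In liver the same pair had r = -0.07 (rho = 0.08, permutation p = 0.85 and 0.77, adjusted 0.98 and 0.92). Whether the tissues differ in this relation was not tested.

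The other 10 relations did not pass, with r between -0.40 and 0.41 and the smallest adjusted permutation p at 0.31 for r and 0.40 for rho. Hlf and Nfil3 in liver had r = -0.40 (rho = -0.40, permutation p = 0.055 and 0.073), and -0.28 without the 2 farthest arrays. Tef and Hlf in liver had r = 0.41 (rho = 0.36, permutation p = 0.13 and 0.17), with 0.60 at ZT0 and -0.22 at ZT12. For the 15 mice with both tissues, deviations in liver and gut were compared over 4 relations. The r was 0.30 for Dbp, 0.28 for Tef, 0.02 for Hlf and 0.12 for Nfil3, the rho 0.40, 0.55, 0.09 and 0.19, and the permutation p for r 0.26, 0.065, 0.94 and 0.75, with 0.26 the smallest after adjustment. The permutation p for rho was 0.16, 0.074, 0.77 and 0.55. Without the 2 mice farthest from the median of the liver value, r was 0.23, 0.52, 0.11 and 0.73, so the value for Nfil3 depends on those 2 mice.

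**Figure D5:**
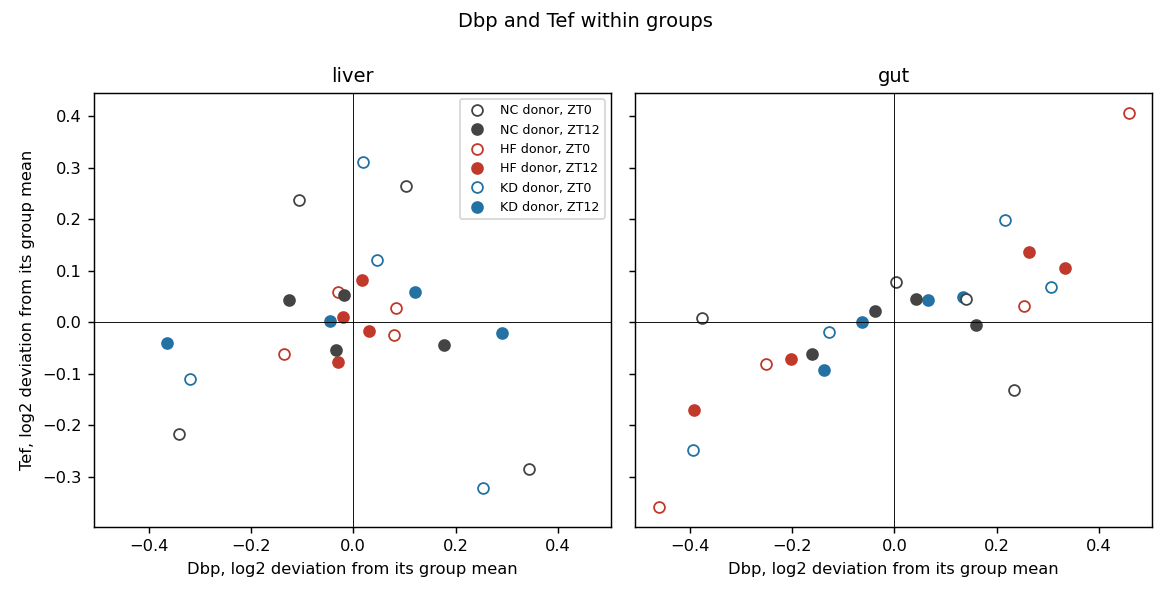
Deviation of Tef from its group mean against that of Dbp, on the log2 scale, for the 24 arrays of liver and of gut, with colour for donor diet and open points for ZT0. In gut the points run from low in both genes to high in both (r = 0.78), and in liver they do not (r = -0.07). The gut points of HF donors are the most widely spread.

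The labelled tissues were checked against marker lists. In liver the mean log2 level of 5 hepatocyte markers ranged from 13.37 to 13.54, against 9.22 to 11.29 in gut, where 0 of the 5 lay below the array median. In gut that of 5 enterocyte markers ranged from 11.97 to 12.44, against 7.29 to 8.25 in liver. Not every marker set the tissues apart. The hepatocyte marker Apoa1 had a median of 13023.6 units in liver and 11738.6 in gut. The enterocyte marker Cdx1 had 880.3 in liver and 1077.9 in gut. In gut 5 smooth muscle markers ranged from 10.62 to 11.40 and 3 ileum markers ranged from 11.16 to 12.37 while 2 of 3 duodenum markers lay below the array median. The albumin gene ranged from 62.9 to 3578.7 intensity units in gut. The 12 lymphoid markers of gut moved with group at ZT12, from 7.85 to 8.53 in NC recipients, 6.70 to 7.99 in HF recipients and 6.68 to 6.86 in KD recipients. With that level as a covariate the time changes in gut still passed, at 3.48 for Dbp, 2.12 for Tef, 0.86 for Hlf and -2.23 for Nfil3. Of 5 markers of natural killer and innate lymphoid cells, 3 lay below the array median in both tissues. Nothing beyond titles and labels shows that the arrays of a group are separate animals, so p-values measure the spread between these samples, which may be technical. Array medians ranged from 88.2 to 104.4 units in liver and from 124.9 to 135.8 in gut.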

How the data were processed

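Liver and gut RNA of faecal transplant recipients was measured on 48 arrays; per the labels' protocols, extraction used TRIzol and then RNeasy. The deposited table gives each transcript cluster's intensity on a linear scale. The submitters' processing notes name PLIER for it; no source used here states its version or a genome build. The authors' 8 comparison tables give symbols, a p-value per cluster and a ratio of group means; per the file headers their other columns are those of a regularised Bayesian statistic, and only the p-value and ratio were used here, adjusted again with Benjamini-Hochberg.

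Symbols (67.0% of 35556 clusters) were brought up to date through RefSeq. From the deposited intensity, log2(intensity + 16) was computed and quantile normalised within each tissue over all clusters, and of several clusters of a gene the brightest on average in that tissue was used, for 20702 genes. The test was limma 3.58.1 under R 4.3.3 (6 groups, 18 residual degrees of freedom, two-sided, Benjamini-Hochberg over all genes, threshold 0.05). Changes are on the log2(value + 16) scale, which understates those of dim genes. The tissues were compared in 1 fit of 20468 genes with the same cluster in both, normalised within tissue for time changes and jointly for levels, with a consensus correlation of 0.038 within mice. Relations were tested by 100000 two-sided permutations of arrays within groups in Python 3.11.15. The number of arrays limits the precision. The fit was tested on simulated data.

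Replicate numbers come from the titles. Same-numbered arrays did not deviate together on average (mean correlation -0.085 over 14 pairs in liver and 0.001 over 16 in gut). Single pairs ranged from -0.33 to 0.15 in liver and from -0.27 to 0.46 in gut. The main fits did not pair samples by number, though so few pairs cannot exclude a pairing.

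The members and lists were chosen with earlier results of these data known. Named genes are the members, up to 6 highest and 6 lowest members of each list past the threshold with all 3 donor diets, the 4 nearest profiles and 2 with the sign turned; Nr1d1 in liver, Lpl and the tissue differences were chosen after their values were seen. Some genes that this rule names are not reported here. Alternatives were no step between arrays, an offset of 1, no genes with a highest group mean under 64 units, array weights, a fit of the compared groups alone, a robust prior with a trend, every cluster singly, a replicate block, a lymphoid covariate in gut, the authors' p-values, other tissue fits and leaving out each array. The offset of 1 between tissues and the marker levels taken out of the relation of Dbp and Tef were chosen after seeing the data.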

Additional observations from a re-analysis of the deposited data

Results flagged for a closer look

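The rise of Dbp from ZT0 to ZT12 differed between the tissues in the test of the difference itself: it was larger in liver than in gut by 0.86 on the log2 scale (limma, adjusted p = 7.41e-06), and in the same direction with each of the 3 donor diets. It was 0.89 with an offset of 1, and Dbp lay below the array median on all ZT0 arrays of both tissues, so both rises start from dim signal.

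In 48 groups of 4 arrays for the members, Dixon's test found 0 arrays far from the others on the quantile normalised log2 scale and 2 on the deposited intensity, a test that marks about 1 in 20 groups by chance. Hlf in liver of NC recipients at ZT12 was at 683.2 units on replicate 13, and the next array was at 814.7. Tef in liver of KD recipients at ZT12 was at 706.6 units on replicate 10, and the next array was at 652.8.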

How the results depend on the processing

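All 32 time changes of the members, per donor diet and averaged, kept their direction and stayed past the threshold under the 640 alternative values computed, leaving out each array included. The number of members called was 4 with each donor diet throughout. With the replicate block, the mean changes in liver were 4.12 for Dbp, 2.47 for Tef, 1.21 for Hlf and -2.12 for Nfil3, with the times tied only through liver KD ZT0 replicate 7; the block could not be fitted to time changes in gut, where no number is shared between times, and it changed no call. The count of members whose time change differed between tissues went from 1 to 2 with an offset of 1, and leaving out each array gave 1 to 2; the level of Dbp at ZT0, liver minus gut, was -0.18 with no step between arrays.

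Donor differences from NC never passed, but small ones changed sign; the cause was not tested. With the replicate block the values were 0.11 for Hlf and -0.13 for Nfil3 in liver (HF, ZT12), 0.01 for Tef and 0.01 for Hlf in liver (KD, ZT0), -0.01 for Hlf in gut (HF, ZT12), 0.12 for Dbp and -0.03 for Nfil3 in gut (KD, ZT0), and -0.03 for Dbp and -0.02 for Hlf in gut (KD, ZT12). With array weights, Tef and Hlf in liver (KD, ZT0) were both at 0.03 and Nfil3 in gut (HF, ZT12) at 0.04; the last was 0.02 with no step between arrays. With the lymphoid covariate, Dbp in gut (HF, ZT12) was 0.05. Leaving out each array gave, in liver, -0.19 to 0.02 for Tef (KD, ZT0), -0.17 to 0.06 for Dbp (HF, ZT0), -0.02 to 0.16 for Tef (HF, ZT0), -0.02 to 0.21 for Dbp (KD, ZT0), -0.04 to 0.01 for Tef (HF, ZT12) and -0.11 to 0.04 for Hlf (KD, ZT12). In gut it gave -0.12 to 0.03 for Nfil3 (HF, ZT0), -0.07 to 0.13 for Nfil3 and -0.15 to 0.10 for Dbp (KD, ZT0), and -0.02 to 0.08 for Dbp (KD, ZT12). At ZT12 with HF donors in gut it gave -0.20 to 0.04 for Dbp, -0.10 to 0.18 for Hlf, -0.19 to 0.05 for Nfil3 and -0.01 to 0.10 for Tef. Over all donor differences, 38 of 72 changed sign under at least 1 alternative, and 10 of 24 of their changes with time. Without the 2 farthest arrays, r was 0.09 for Dbp and Tef in liver and 0.04 for Tef and Nfil3 in gut.

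The limits are 2 times of day, 4 arrays a group, low signal of Dbp at ZT0 and of Nfil3 at ZT12, and gut samples of mixed cell content.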
